A study of Homo sapiens with 12 samples.

Results

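The genes described here are 10 protein-coding neighbours of CDKN2A on the short arm of chromosome 9, at 9p21: MTAP, DMRTA1, ELAVL2, TUSC1, CAAP1, PLAA, IFT74, TEK, MOB3B and C9orf72. They were chosen by their position, between about 20 and 30 Mb of GRCh38, and with their presence or absence in the groups of this study already known. Their levels and the differences between these groups are therefore a description, with no test. All 10 were found by Ensembl identifier among the 58174 genes of each deposited table. The values are TPM, a measure of RNA abundance per length of transcript in which every library is brought to a common total.

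The mRNA-seq covered U87 and U118, established human glioblastoma cell lines, with 3 libraries in each of 4 groups. In each line, control cells, labelled sensitive, were set against aggregation cells, labelled resistant, which formed after continuous exposure to temozolomide (TMZ, an alkylating drug) at 50 µM. Per the study's methods the cells put under TMZ had been sorted as CD133- and CD15-, and grew in serum with BMP2. The sources do not say whether the 3 libraries of a group came from separate cultures, so the SD given here may be technical. TPM keeps no read count, and the depth of each library is unknown.

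CDKN2A encodes inhibitors of the cell cycle, and the 9p21 band around it is often deleted on both copies in glioblastoma, frequently together with MTAP. Genes further along the band belong to unrelated pathways: protein turnover, cilia, angiopoietin signalling and membrane traffic. An RNA level does not tell a gene that is lost from a gene that is silent, and DNA copy number was not analysed here.

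The libraries were compared before any gene was read. Across 16345 genes, the U118 aggregation libraries had a Spearman's rho of 0.808 to 0.839 with U118 control, the cells they are labelled as coming from. With U87 control their rho was 0.895 to 0.909, and with U87 aggregation 0.907 to 0.913. In U87, control and aggregation libraries reached 0.944 to 0.952, and libraries of the same group 0.96 to 0.988 in all 4 groups. The U118 aggregation libraries thus stood closer to both U87 groups than to U118 control. The identity of these libraries and of the U118 control cells was not tested beyond these values, and the groups are named here as labelled. Every U118 difference below rests on these libraries. No U118 comparison is left without them, so U118 control is also set beside U87. Genes at 1 TPM or more numbered 13245 to 15260 per library, and mitochondrially encoded genes held 12.9% to 16.9% of the TPM in U87 control and 22.2% to 23.7% in U87 aggregation, without overlap, and 7.42% to 19.8% in U118 control and 13.2% to 29.9% in U118 aggregation. The part of this share in the differences below was not tested beyond recomputing TPM without these genes. The general glioma markers VIM (4425 to 7149 TPM) and CD44 (311 to 868 TPM) were high in all 12 libraries, whereas GFAP, S100B and SOX2 did not exceed 0.693, 0.281 and 0.55 TPM. OLIG2, a glial transcription factor, lay at 1.45 to 4.45 TPM in U87, at 0 to 0.0524 in U118 control and at 0.57 to 1.05 in U118 aggregation.

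**Figure D1:**
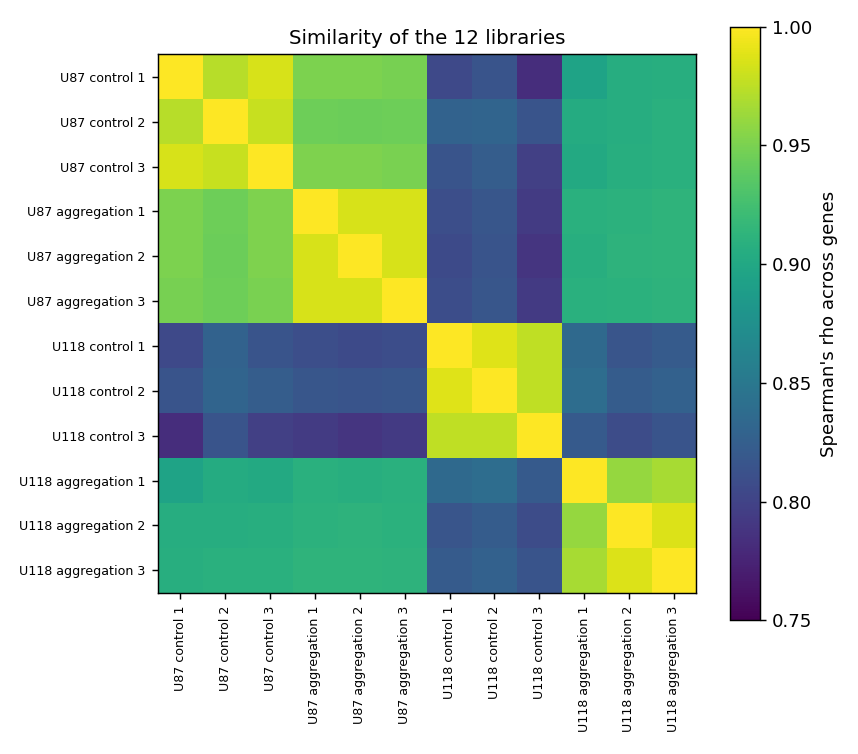
Spearman's rho across 16345 genes between each pair of the 12 libraries, colour scale from 0.75 to 1. The 3 U118 aggregation libraries are brighter against the 6 U87 libraries (0.895 to 0.913) than against the 3 U118 control libraries (0.808 to 0.839).

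A gene was called present in a group when all 3 libraries reached 1 TPM, and absent when all 3 lay under 0.1 TPM. In U118 control all 10 genes were absent, and 8 of them were listed at 0 in all 3 libraries. In U118 aggregation 6 were present and 4 absent. U87 control had 4 present, 4 absent and 2 in between, and U87 aggregation 5 present, 4 absent and 1 in between. Summed over the 10 genes, the level was 0.0471 to 0.114 TPM in U118 control against 38.3 to 64.9 in U118 aggregation, 36 to 54.9 in U87 control and 41.5 to 42.2 in U87 aggregation. Along the chromosome the genes fell into 3 absent genes nearest to CDKN2A and 7 further away, of which 4 (TUSC1, CAAP1, PLAA and IFT74) were present in 3 of the 4 groups, C9orf72 in both aggregation groups, TEK in U118 aggregation only and MOB3B in no group.

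The 3 genes nearest to CDKN2A were absent in every group. MTAP (ENSG00000099810, plus strand, chr9:21802543-21937651) recycles methylthioadenosine, a by-product of polyamine synthesis, to methionine, and ends 30 kb before CDKN2A. It was listed at 0 in all 6 U87 libraries, at 0, 0.0396 and 0.0962 TPM in U118 control and at 0, 0.0464 and 0.0291 in U118 aggregation. DMRTA1 (ENSG00000176399, plus strand, chr9:22446841-22455740), a DM-domain transcription factor 452 kb beyond CDKN2A, was listed at 0 in all 12 libraries. ELAVL2 (ENSG00000107105, minus strand, chr9:23690104-23826337), a neuronal RNA-binding protein of the Hu family 1695 kb away, was listed at 0 in 11 libraries and at 0.0552 TPM in 1 U118 aggregation library. MTAP therefore had a trace of signal in 4 of the 6 U118 libraries and in no U87 library, and the U118 groups overlapped.

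The reference locus itself was also low. CDKN2A was listed at 0 in the 3 U87 control libraries and in 2 of U87 aggregation, with 0.141 TPM in the other. It read 0.501, 0.287 and 0.293 TPM in U118 control and 0.157, 0.186 and 0.162 in U118 aggregation, so the U118 groups did not overlap, with aggregation lower. CDKN2B, its neighbour and a related inhibitor, had no signal in the 6 U87 libraries, being listed at 0, and read 0.0454, 0 and 0.0846 TPM in U118 control and 0.0369, 0.133 and 0.199 in U118 aggregation, with overlap. CDKN2A thus had a signal of 0.157 TPM or more in each of the 6 U118 libraries, including the 3 control libraries in which 8 of the 10 neighbours were listed at 0.

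TUSC1 (ENSG00000198680, minus strand, chr9:25676389-25678440), a short gene proposed as a tumour suppressor, lies 3681 kb from CDKN2A. It read 16.4, 15.7 and 14 TPM in U87 control and 15.5, 16.5 and 15.7 in U87 aggregation. It was listed at 0 in the 3 U118 control libraries and read 13.5, 13.8 and 13.9 TPM in U118 aggregation. The 2 U87 groups overlapped, and the U118 groups were wholly apart. Group means were 15.3 ± 1.23, 15.9 ± 0.534, 0 and 13.7 ± 0.214 TPM (SD, n = 3), the narrowest relative spread of the expressed genes.

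CAAP1 (ENSG00000120159, minus strand, chr9:26840685-26892804), described as an inhibitor of caspase activation, read 3.79, 5.71 and 3.14 TPM in U87 control and 4.83, 4.33 and 4.94 in U87 aggregation. It was listed at 0 in all 3 U118 control libraries and read 4.72, 3.19 and 3.59 TPM in U118 aggregation, where the mean of 3.83 ± 0.796 (SD, n = 3) fell within the range of U87 control. PLAA (ENSG00000137055, minus strand, chr9:26904083-26947463) is a ubiquitin-binding cofactor of the segregase VCP. It read 11.8, 25.2 and 17.1 TPM in U87 control, 16.4, 15.5 and 17.2 in U87 aggregation, 0 in the 3 U118 control libraries, and 33.2, 13.9 and 16.4 in U118 aggregation. PLAA was the most abundant of the 10 by mean in each of the 3 groups that expressed it, at 18.1 ± 6.77, 16.4 ± 0.851 and 21.2 ± 10.5 TPM (SD, n = 3), with TUSC1 next. The 2 ranges overlapped in both U87 groups, and in U118 aggregation they met at 13.9 TPM, so this order was not separated by the spread.

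IFT74 (ENSG00000096872, plus strand, chr9:26947039-27062930) is a core subunit of the intraflagellar transport complex B, which carries cargo along cilia. It read 3.15, 6.04 and 3.26 TPM in U87 control, 4.07, 3.04 and 2.39 in U87 aggregation, 0 in the 3 U118 control libraries, and 5.05, 3.7 and 4.21 in U118 aggregation. The U87 groups overlapped. PLAA and IFT74 lie head to head, and their annotated bodies share 425 bases. Whether the counting used strand is not stated, so reads in the shared stretch cannot be assigned to either gene. CAAP1 ends 11.3 kb before PLAA on the chromosome, so these 3 genes form a tight cluster 4845 to 4952 kb from CDKN2A.

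C9orf72 (ENSG00000147894, minus strand, chr9:27546545-27573866), a partner of SMCR8 in a complex that regulates membrane traffic and autophagy, lies furthest out at 5551 kb. It read 0.721, 2.07 and 0.737 TPM in U87 control and 1.15, 2.01 and 1.71 in U87 aggregation. It was listed at 0 in the 3 U118 control libraries and read 4.57, 2.23 and 2.95 TPM in U118 aggregation, above all 6 U87 libraries. The U118 aggregation mean was 3.25 ± 1.2 TPM against 1.18 ± 0.773 and 1.62 ± 0.438 in U87 control and aggregation (SD, n = 3). The tables of the 2 lines were made separately, and no test was run across them.

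TEK and MOB3B, side by side between IFT74 and C9orf72, did not follow their neighbours. TEK (ENSG00000120156, plus strand, chr9:27109141-27230175), the endothelial receptor of the angiopoietins, also known as TIE2, read 0.0223, 0.0184 and 0.0214 TPM in U87 control and 0.144, 0.0591 and 0.0696 in U87 aggregation. It read 0.0573, 0.00744 and 0.0182 TPM in U118 control against 3.93, 1.37 and 1.46 in U118 aggregation, the only group in which it was present. The difference in U118 was 1.58 (SE 0.27) on the log2(TPM + 1) scale, which understates changes of low genes. The 2 U87 groups did not overlap either, with aggregation higher, although all 6 values lay under 0.15 TPM. MOB3B (ENSG00000120162, minus strand, chr9:27325209-27529781), a kinase activator-like protein, read 0.16, 0.202 and 0.0931 TPM in U87 control and 0.0156, 0.0152 and 0 in U87 aggregation, again without overlap but with aggregation lower. It was listed at 0 in 5 of the 6 U118 libraries, with 0.0118 TPM in the other.

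Endothelial markers were looked at beside TEK, because TEK itself marks that cell type. Of 5 such genes (PECAM1, CDH5, VWF, TIE1, KDR), none was present in U118 aggregation and 2 were present in U118 control. Their summed level was 1.47 to 2.62 TPM in U118 aggregation, 5.26 to 5.52 in U118 control, 3.49 to 3.9 in U87 control and 1.87 to 3.23 in U87 aggregation. CDH5, a defining endothelial cadherin, was listed at 0 in all 6 U118 libraries. In U118 aggregation, where TEK was highest, the endothelial sum was below both control groups and overlapped U87 aggregation.

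Single libraries moved several of these genes together. The second U87 control library was the highest of its group for CAAP1, PLAA, IFT74 and C9orf72, and the first U118 aggregation library was the highest of its group for these 4 and for TEK. TUSC1 did not share this, with its middle value in the former library and its lowest in the latter. The same 2 libraries had the smallest mitochondrial share of their groups (12.9% and 13.2%) and the most genes at 1 TPM (14044 and 15159). HAUS6, DENND4C and TOPORS, outside the interval, were also highest in the second U87 control library, at 13.4, 5.06 and 8.03 TPM. The part of library composition in these values was not tested. Without the first U118 aggregation library, 6 genes were present and 4 absent in that group, as with it.

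A limma fit on log2(TPM + 1) was made over all genes of each table with at least 1 TPM in 3 of the 6 libraries, and calls required a difference of at least 1 on the log2 scale, in either direction, with a p under 0.05 after Benjamini-Hochberg adjustment. In U87, 5 of the 10 genes entered the fit (TUSC1, CAAP1, PLAA, IFT74, C9orf72) and 0 were called, where 10.8% of the 13845 genes tested were called, 3.03% higher and 7.79% lower. Their differences, aggregation minus control, ran from -0.28 (IFT74, SE 0.26) through -0.07 (PLAA, SE 0.25), 0.05 (TUSC1, SE 0.11) and 0.16 (CAAP1, SE 0.21) to 0.31 (C9orf72, SE 0.26), beside a median of -0.24 over all genes tested. In U118, 6 entered the fit and 6 were called higher in aggregation, where 8.64% of 15527 genes were called higher and 35.3% in either direction. The rule that chose the genes used this contrast, and they entered the fit only through the group in which they are present, so nothing is read from that count. For the 5 genes listed at 0 in U118 control the fitted difference is set by the pseudocount and is no fold. By the presence rule, 201 of 15116 genes that were present in either U118 group, 1.33%, were present in aggregation and absent in control, 6 of them among the 10; the reverse held for 408, 2.7%. In U87 the same count was 25 of 13439 genes, 0.186%, and 9 genes, 0.067%, in reverse, with none of the 10 in either.

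No other gene of the interval met the rule for presence in any group. Of the other 108 genes from 20 to 30 Mb, 28 of them protein-coding, 0 were present in any group and 0 entered either fit. Among them FOCAD, MLLT3 and KLHL9, which lie on the far side of CDKN2A, and the cluster of interferon genes were listed at 0 in all 12 libraries. LINGO2, a neuronal membrane protein next after C9orf72, came closest to presence, with 0.481, 1.37 and 0.928 TPM in U87 control and 1.01, 0.993 and 0.995 in U87 aggregation. It was listed at 0 in the 3 U118 control libraries and read 0.234, 0.125 and 0.324 TPM in U118 aggregation. Like CAAP1 and IFT74 it was thus listed at 0 in U118 control and read above 0 in the other 9 libraries, at a lower level. IFT74-AS1, an antisense transcript within IFT74, did not exceed 0.548 TPM and was listed at 0 in all 3 U118 control libraries.

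Genes on both sides of the interval were expressed in all 4 groups. From 10 to 20 Mb, 15, 14, 15 and 14 of 101 genes were present in U87 control, U87 aggregation, U118 control and U118 aggregation. From 30 to 39 Mb the counts were 77, 75, 73 and 77 of 262. The nearest expressed genes before 20 Mb, HAUS6, DENND4C and RPS6, and after 30 Mb, ACO1, DDX58 and TOPORS, were present in every group. RPS6, a ribosomal protein gene 0.62 Mb outside, read 1326 to 1633 TPM in U118 control and 1003 to 1447 in U118 aggregation. ACO1, which encodes the iron regulatory aconitase, lies 2.38 Mb outside and read 82.8 to 94 TPM in U118 control and 32.2 to 48.6 in U118 aggregation.

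**Figure D2:**
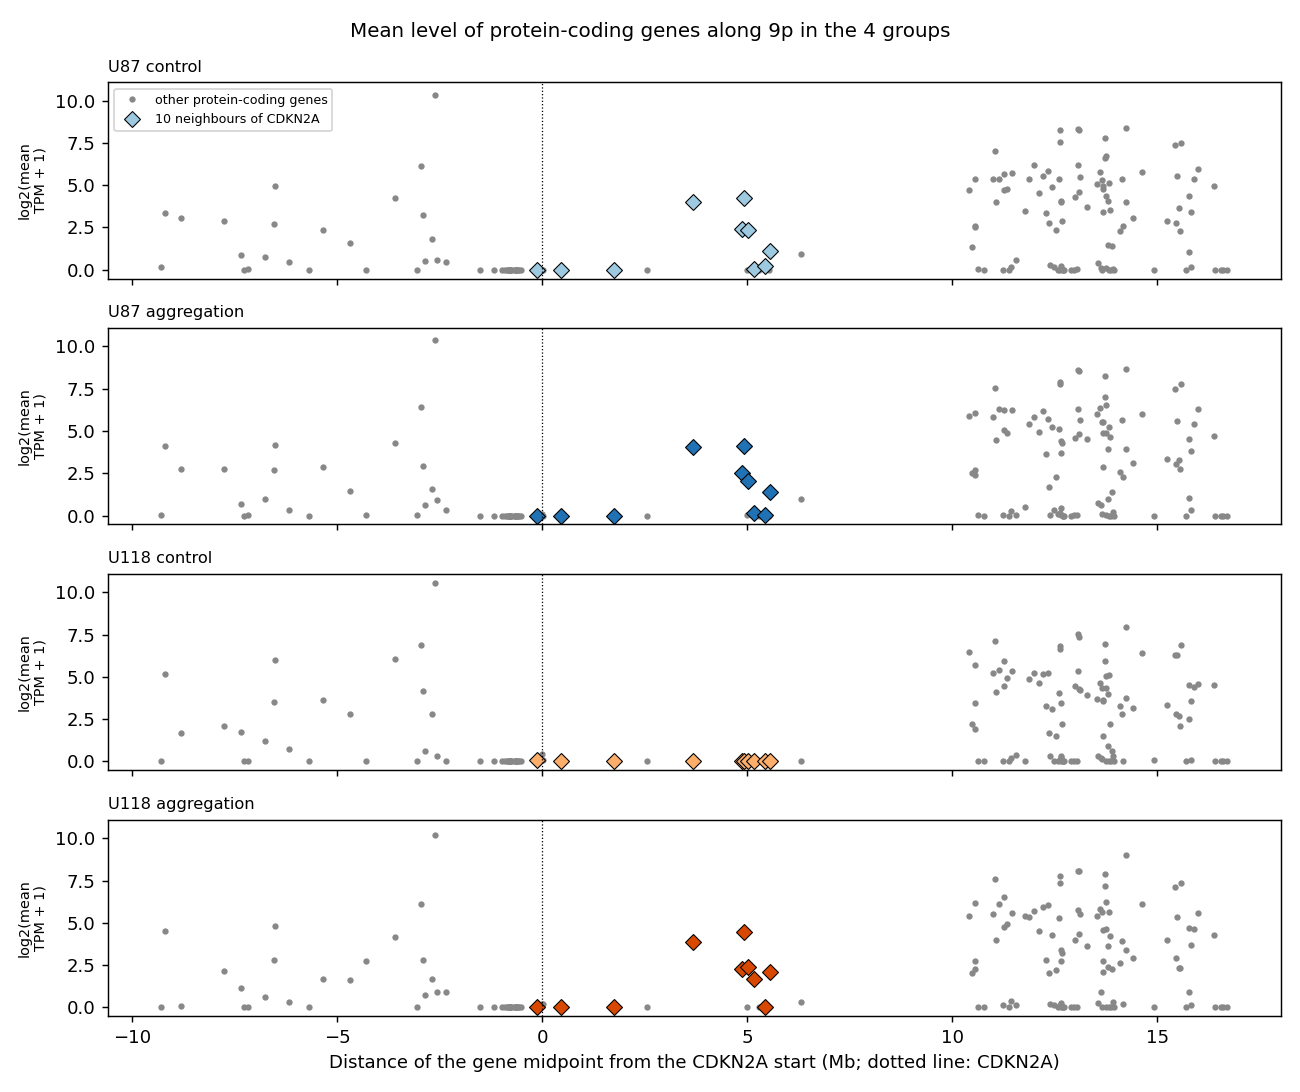
Mean log2(TPM + 1) of protein-coding genes of 9p in the 4 groups against the distance of the gene midpoint from the CDKN2A start in Mb; diamonds are the 10 neighbours and grey points the other genes. Diamonds rise off the baseline about 4 to 6 Mb beyond CDKN2A in 3 groups and in no group closer to it, and all lie at or near 0 in U118 control. Genes on both sides are expressed in all 4 groups, though single genes there differ between groups.

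Read as distances between neighbouring present genes, U118 control had a gap from RPS6 to ACO1 (chr9:19380254-32384603), 13 Mb long with 40 protein-coding genes inside. It ranked 4 by length of the 9342 gaps between present genes in that group. In the other 3 groups the gap from RPS6 ended at TUSC1, after 6.3 Mb and 29 protein-coding genes. A further gap ran from C9orf72 to ACO1 over 4.81 Mb in both aggregation groups, and from IFT74 to ACO1 over 5.32 Mb in U87 control, where C9orf72 missed 1 TPM in 2 libraries. All 4 groups thus had no present gene between RPS6 and TUSC1, a stretch that includes CDKN2A, and the end of that gap differed in U118 control.

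The genes absent in U118 control were also read in their order along the chromosome. Along each chromosome, protein-coding genes present in at least 1 group were ordered, and a run was a stretch of them all present in one group and all absent in another. Between U118 aggregation and U118 control there were 130 such runs in that direction, of which 122 held 1 gene, 4 held 2, 2 held 3 and 1 held 4. The longest held 6: TUSC1, CAAP1, PLAA, IFT74, TEK and C9orf72 (chr9:25676389-27573866). MOB3B, between TEK and C9orf72, was present in no group and so was left out of the order. All genes of this run were chosen by position and with their presence known. Its length and rank are therefore no separate result. Against either U87 group, U118 control lacked a run of 4, from TUSC1 to IFT74, and at these thresholds no longer run was found in these directions. With absence set under 0.2 TPM, a run of HOXD genes reached 7 against U87 control and 5 against U87 aggregation. In the opposite direction U118 control held longer runs, up to 25 zinc finger genes on chromosome 19 that were absent in each of the other 3 groups.

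Of the 10 genes, 4 (TUSC1, CAAP1, PLAA and IFT74) were listed at 0 in all U118 control libraries and reached 1 TPM in each of the other 9. Among all genes, 42, 32 of them protein-coding and 5 on chromosome 9, had this pattern. The matching counts were 3 for U87 control, 0 for U87 aggregation and 9 for U118 aggregation, with none of the 10 among them.

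Since TUSC1, PLAA, IFT74 and TEK carry the pattern, from presence in 3 groups to presence in 1, their promoter windows are shown. Each has 250 bases before and 50 after a start, from RefSeq on GRCh38.p14, 5′ to 3′ on the gene's strand, with GGGCGG or its complement CCGCCC, the letters of a GC box, in capitals. Such letters occur in 45% of 35114 promoter windows of this length, and both strands were searched. Of the 10 genes, 9 had an entry; CAAP1 is named only.
TUSC1 at chr9:25678395-25678694, minus strand: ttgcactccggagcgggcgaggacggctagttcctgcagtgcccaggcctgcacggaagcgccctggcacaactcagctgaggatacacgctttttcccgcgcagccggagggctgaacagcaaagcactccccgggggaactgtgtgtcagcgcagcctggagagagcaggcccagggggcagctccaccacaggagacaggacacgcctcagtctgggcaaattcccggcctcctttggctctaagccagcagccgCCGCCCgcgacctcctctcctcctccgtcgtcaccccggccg
PLAA at chr9:26947193-26947492, minus strand: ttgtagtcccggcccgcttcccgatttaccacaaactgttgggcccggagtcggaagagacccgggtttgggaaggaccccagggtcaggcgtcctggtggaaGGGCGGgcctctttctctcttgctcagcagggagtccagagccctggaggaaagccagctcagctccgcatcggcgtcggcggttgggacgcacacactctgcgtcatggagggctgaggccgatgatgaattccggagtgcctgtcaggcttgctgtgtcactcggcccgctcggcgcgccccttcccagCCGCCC
IFT74 at chr9:26947050-26947349, plus strand: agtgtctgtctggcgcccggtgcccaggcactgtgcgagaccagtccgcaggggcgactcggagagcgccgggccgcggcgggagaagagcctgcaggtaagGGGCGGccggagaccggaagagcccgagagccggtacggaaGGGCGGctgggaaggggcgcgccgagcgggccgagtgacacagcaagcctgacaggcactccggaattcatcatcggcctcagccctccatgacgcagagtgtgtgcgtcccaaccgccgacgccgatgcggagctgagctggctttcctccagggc
TEK at chr9:27108975-27109274, plus strand: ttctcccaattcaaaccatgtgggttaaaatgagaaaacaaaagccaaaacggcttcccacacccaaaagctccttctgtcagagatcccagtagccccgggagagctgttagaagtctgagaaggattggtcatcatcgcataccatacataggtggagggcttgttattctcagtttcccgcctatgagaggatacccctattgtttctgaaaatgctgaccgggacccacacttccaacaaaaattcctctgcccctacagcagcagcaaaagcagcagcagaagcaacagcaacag

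The windows differ in base composition. GC content was 67% for TUSC1, 65.3% for PLAA and 70% for IFT74, against a median of 58.7% over all windows, and 48% for TEK. The PLAA, IFT74 and TUSC1 windows hold 23, 32 and 22 CpG dinucleotides and the TEK window 5, where the median is 14. GGGCGG was found 2 times in the PLAA window, 2 times in the IFT74 window, 1 time in the TUSC1 window and not in the TEK window. CCAAT, found in 34.6% of windows, occurred 2 times for TEK and in none of the other 3, and TATAAA, found in 11.5%, in none of the 4. The PLAA and IFT74 windows share 157 bases on opposite strands. RefSeq lists 3 start windows for IFT74 and 2 for TEK, of which 1 each is shown. The other 2 of IFT74 share 0 bases with the PLAA window. One, at chr9:26946860-26947159, has 72% GC and 31 CpG. The other, at chr9:26956162-26956461, has 54.3% GC, below the median, 20 CpG and a CCAAT. The other window of TEK holds 3 CpG and 0 CCAAT. Of the genes present in no group, MTAP, DMRTA1 and MOB3B had windows with 15, 16 and 19 CpG, and the 6 windows of ELAVL2 ran from 11 to 40. The 2 windows of C9orf72 held 18 and 25. This is a description of the windows, and methylation was not analysed here.

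The pathways of the 10 genes were followed through 8 lists of partner genes, 75 names of which 71 were in the tables. The names not found, IFT25, IFT56, IFT70A and IFT70B, are second names of HSPB11, TTC26, TTC30A and TTC30B, which were found. In U87, 58 were tested, of which 1 was called higher and 6 lower, where 3.03% and 7.79% of all genes were. ANGPT1, called higher, and DOK2 and IFT88, called lower, entered this fit only through the group in which each is high. Nothing is therefore read from their calls. After median-ratio scaling 2 partners were called higher and 0 lower in U87. In U118, 60 were tested, of which 1 was called higher and 22 lower, beside an all-gene median of -0.52 and a share of 26.6% of all genes called lower. DOK2, called higher, entered this fit only through aggregation, and ANGPT1, FAF1 and DMRTA2, called lower, only through control. Nothing is read from the calls of these genes either. With median-ratio scaling, which brings the all-gene median to -0.02, 9 of the 22 were still called lower, beside 12.9% of all genes. With it 6 partners were called higher, beside 15.2%. ANGPT1, FAF1 and DMRTA2 are among the 9, and DOK2 is among the 6. All 22 differences stayed below 0. Partners that were not called could change sign, such as IFT81, from -0.20 to 0.31.

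The list for MTAP, of methionine salvage and genes linked to methylthioadenosine, had all 14 genes present in every group. In U118, 5 were called lower and 0 higher, where 26.6% and 8.64% of all genes were. These were MRI1, ENOPH1, PRMT5, CLNS1A and RIOK1, of which PRMT5, CLNS1A and RIOK1 are not salvage enzymes. The list median was -0.71, beside -0.52 over all genes. After median-ratio scaling 1 was called lower (MRI1) and 1 higher (GOT1, 1.26), where 12.9% and 15.2% of all genes were. MRI1, the enzyme that acts directly after MTAP, read 52.2 TPM in U118 control and 11.6 in U118 aggregation, a difference of -2.08 (SE 0.20, limma adjusted p = 4.4e-05). In U87 its means were 6.78 TPM in control and 6.19 in aggregation. PRMT5, the methyltransferase inhibited by methylthioadenosine, differed by -1.02 (SE 0.20, limma adjusted p = 0.00283), and by -0.46, not called, after median-ratio scaling. Its means were 173 and 85.3 TPM in U118 control and aggregation, and 95 and 101 in U87 control and aggregation. In U87, where 7.79% of all genes were called lower, the spermine synthase SMS was the 1 gene called, with -1.18 (SE 0.13, limma adjusted p = 0.000782). After that scaling it read -0.91 and was no longer past the threshold of 1.

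In the receptor system of TEK, ligand and receptor were not high in the same group. ANGPT1, the activating ligand, read 11.1, 7.14 and 10.9 TPM in U118 control and 0.903, 0.0903 and 0.266 in U118 aggregation, a difference of -2.94 (SE 0.28) without overlap. In U87 it read 0.066, 0.274 and 0.102 TPM in control and 1.22, 1.12 and 1.65 in aggregation, a difference of 1.02 (SE 0.15) in the other direction. In each line it entered the fit only through the group in which it is high, so no p is given. The U87 call was lost in 5 of the 6 fits that left out 1 library, in 3 because the gene left the fit and in 2 because the difference fell under 1. ANGPT2, the context-dependent antagonist, had a mean under 0.07 TPM in every group. TIE1, the co-receptor, read 3.38, 3.09 and 2.98 TPM in U118 control and 1.89, 1.1 and 0.836 in U118 aggregation, and was not called (-0.89, SE 0.23, limma adjusted p = 0.0101). DOK2, a docking protein downstream of TEK, read 0.428, 0.178 and 0 TPM in U118 control and 1.61, 2.13 and 1.61 in U118 aggregation, a difference of 1.22 (SE 0.19). It too entered that fit only through the group in which it is high, and left it when any 1 aggregation library was left out. In U87 it read 2.11, 1.92 and 3.81 TPM in control and 0.668, 0.777 and 0.537 in aggregation, a difference of -1.09 (SE 0.21), and of -0.94 after median-ratio scaling, again with entry to the fit only through the group in which it is high.

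The other subunits of IFT-B stayed expressed where IFT74 was listed at 0. All 16 partners found were present in U118 control, including IFT81, the direct binding partner of IFT74, at a mean of 9.39 TPM. From control to aggregation in U118, 7 of 16 were called lower and 0 higher, where 26.6% and 8.64% of all genes were. After median-ratio scaling 3 were called lower and 2 higher (IFT27, 1.04, and IFT20, 1.31), where 12.9% and 15.2% of all genes were. CLUAP1 had the largest difference, -2.46 (SE 0.30, limma adjusted p = 0.000184), and IFT46 followed with -2.08 (SE 0.24, limma adjusted p = 0.000147). Mean TPM of CLUAP1 was 23.9 and 3.71 in U118 control and aggregation, and 4.16 and 4.8 in U87 control and aggregation. For IFT46 the same means were 104, 23.6, 21.6 and 11.7. IFT81 was not called (-0.20, SE 0.24). In U87, where 7.79% of all genes were called lower, IFT88 was the 1 of 15 called. It was lower in aggregation by -1.13 (SE 0.19), and by -0.96, under the threshold of 1, after median-ratio scaling. It too entered the fit only through the group in which it is high, with 0.929 to 0.999 TPM in aggregation.

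Partners of PLAA and C9orf72 were likewise present in U118 control. VCP itself read 182 TPM there on average and 262 in U118 aggregation, and was not called (0.50, SE 0.29, limma adjusted p = 0.17). After median-ratio scaling VCP (1.06) and its cofactor UBXN6 (1.01) were called higher. NSFL1C, a VCP cofactor, was called lower in aggregation in U87 (-1.07, SE 0.11, limma adjusted p = 0.000536) and in U118 (-1.48, SE 0.19, limma adjusted p = 0.000233), and was at -0.81 and -0.93, under the threshold of 1, after median-ratio scaling. Its means were 56.8 and 26.6 TPM in U87 control and aggregation, and 143 and 50.3 in U118 control and aggregation. FAF1, another VCP cofactor, read 44, 44.9 and 38.3 TPM in U118 control, at most 0.011 in U118 aggregation and at most 0.0144 in U87. It is thus the mirror image of PLAA across the groups, present in U118 control only. FAF1 lies in a run with its neighbours DMRTA2 and CDKN2C (chr1:50417550-50974633), all present in U118 control and absent in the other 3 groups. SMCR8 and WDR41, the obligate partners of C9orf72, were present in all groups, with means of 17.7 and 18.7 TPM in U118 control, and were not called in either line. In U87, SMCR8 read 20.2, 20.2 and 20.5 TPM in control and 11.8, 8.81 and 9.6 in aggregation, without overlap. This difference of -0.95 (SE 0.14) lay under the threshold of 1. DENND1A, of the same list, was called lower in U87 (-1.03, SE 0.22, limma adjusted p = 0.00955), where 7.79% of all genes were. After median-ratio scaling it was at -0.78. FLCN, of a structurally related complex, was called lower in U118 aggregation (-1.13, SE 0.32, limma adjusted p = 0.016), and not after median-ratio scaling (-0.59). Its means were 62.6 and 29.5 TPM in U118 control and aggregation, and 48.6 and 35.1 in U87 control and aggregation.

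Relatives of the absent genes gave a mixed picture. Of the Hu family, ELAVL1 was expressed at 37.6 to 58.5 TPM by group mean, while ELAVL3 and ELAVL4 stayed under 0.1 TPM beside ELAVL2. Of 10 MOB proteins and their kinases, 10 were present in U118 control. In U118 aggregation 5 were called lower and 0 higher, where 26.6% and 8.64% of all genes were. Among the 5 were MOB1B (-1.47, SE 0.23, limma adjusted p = 0.000844) and STK38 (-1.88, SE 0.26, limma adjusted p = 0.000398). Mean TPM of MOB1B was 5.1 and 1.18 in U118 control and aggregation, and 2.08 and 1.65 in U87 control and aggregation. For STK38 the same means were 37.5, 9.73, 14.2 and 16.5. After median-ratio scaling 2 of the 5, MOB1B and STK38, were still called lower, where 12.9% of all genes were. In U87, where 7.79% of all genes were called lower, MOB1A was called lower (-1.03, SE 0.26). It read -0.78 after that scaling and was not called. Of 6 DMRT genes, DMRTA2, the closest relative of DMRTA1, had a mean of 6.84 TPM in U118 control and was listed at 0 in the other groups, and DMRT2 was present only in U87.

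**Figure D3:**
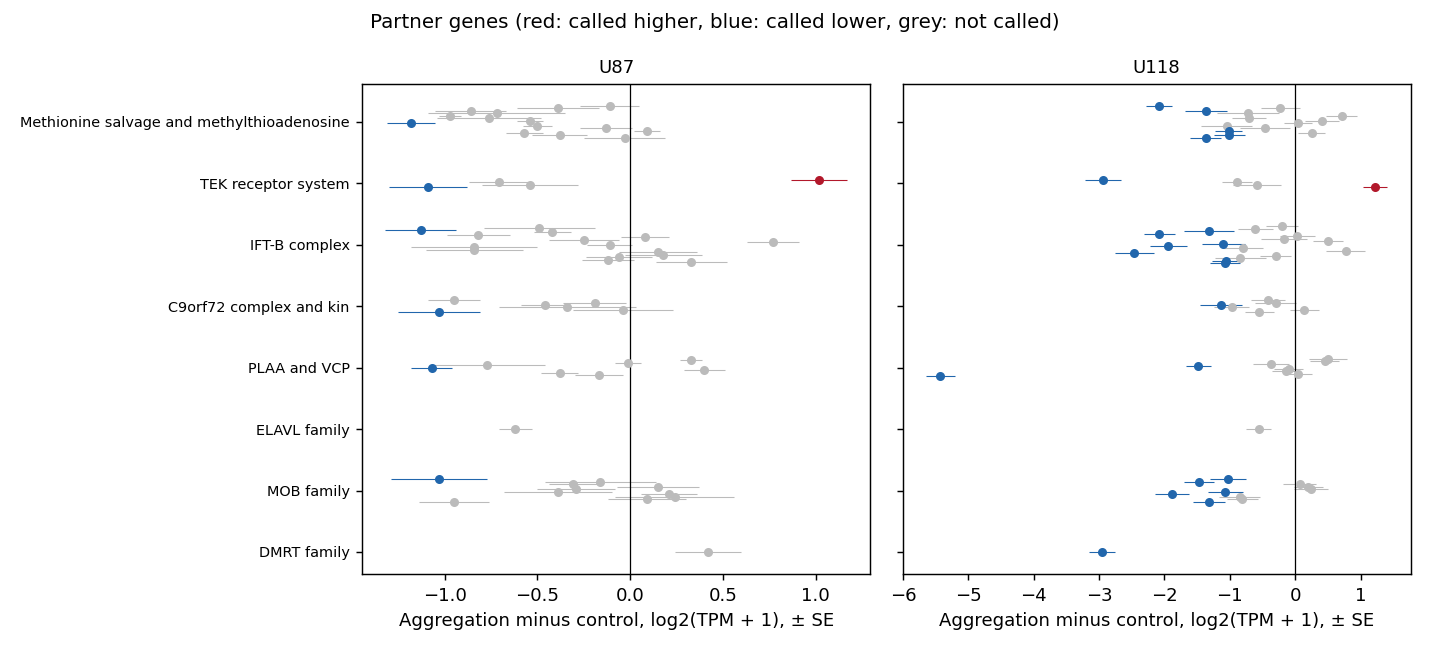
Difference between aggregation and control in log2(TPM + 1), with its standard error, for each tested gene of the 8 partner lists in U87 and U118; coloured points passed the call. Calls were 6 lower and 1 higher in U87 and 22 lower and 1 higher in U118. After median-ratio scaling, 0 of the lower calls in U87 and 9 in U118 were left, with 2 and 6 higher. The higher calls (ANGPT1 in U87, DOK2 in U118) entered the fit only through the group in which the gene is high. So did the lower calls of DOK2 and IFT88 in U87 and of ANGPT1, FAF1 and DMRTA2 in U118. The horizontal axes of the panels differ.

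Genes outside 9p with the most similar profile were sought for each of the 6 genes at 1 TPM or more in at least 3 libraries, by Pearson's r of log2(TPM + 1) over the 12 libraries. These libraries form 4 groups, so r mostly reflects 4 group levels. TUSC1 was most like WNT7B, a Wnt ligand (r = 0.998), PLAA like LXN (r = 0.993), CAAP1 like CREG1 (r = 0.995) and IFT74 like ABLIM1 (r = 0.986), none of which exceeded a mean of 0.7 TPM in U118 control. The genes most like TEK, ANXA8L1 (r = 0.993) and GCKR (r = 0.992), likewise had their highest mean in U118 aggregation, at 12.8 and 3.87 TPM, and means under 0.1 TPM in the other groups. C9orf72 was most like the noncoding RNA PURPL (r = 0.976), with means of 5.91, 9.55, 0.387 and 23.5 TPM in U87 control, U87 aggregation, U118 control and U118 aggregation.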

How the data were processed

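The authors deposited TPM per gene, 1 table for each cell line with 58174 Ensembl identifiers and 6 libraries, 12 in all, and every column of values was used. The submitters' processing notes name FastQC 0.11.2, Trimmomatic 0.36, HISAT2 2.0 and bedtools 2.26.0 with GRCh38; the quantification tool and whether it used strand are not given in the sources used here. The labels gave the groups. Positions came from GENCODE release 29 (57836 identifiers matched) and promoter windows from RefSeq (GRCh38.p14).

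TPM were transformed to log2(TPM + 1) and fitted in each line over the genes that reached 1 TPM in 3 or more of its 6 libraries, using lmFit and eBayes with a trend from limma 3.58.1 (R 4.3.3). Differences are aggregation minus control. A call needed a log2 difference of at least 1 in size and a p under 0.05 after Benjamini-Hochberg adjustment over the genes tested. The fit was tested on simulated data. Errors are SDs over 3 libraries or the fit's SE. Depth could not be given, since TPM keeps no counts.

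The 10 genes, the partner lists and the rules for presence (1 TPM in all 3 libraries) and absence (under 0.1 TPM) were chosen with earlier results of these data known. Partner lists were written by function. Named genes were the 10, CDKN2A and CDKN2B, expressed or nearly expressed genes of the interval, the 3 nearest expressed genes on each side, a part of the partner lists, and genes of similar profile; FOCAD, MLLT3, KLHL9, LINGO2 and IFT74-AS1 were named after their values were seen. Marker lists covered glioma, neuron, endothelial, immune and epithelial cells and the genes of the sort. In U118 aggregation against U118 control, the neuron list had 1 gene called higher of 3 tested, the epithelial list 1 higher of 2, the endothelial list 1 lower of 2, the immune list 0 of 1 and the glioma list 0 of 3. Of all genes tested there, 8.64% were called higher and 26.6% lower. The neuron call (GAP43) and the endothelial call (KDR) entered the fit only through the group in which the gene is high, so nothing is read from them. Of the genes sorted against, PROM1 (CD133) did not exceed 0.0797 TPM in any library, and FUT4 (CD15) read 1.36 to 2.19 TPM in 9 libraries and at most 0.0463 in U118 aggregation. In U87 no marker was called.

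Alternatives were pseudocounts of 0.1 and 0.01, no filter, median-ratio scaling, TPM without mitochondrial genes, the replicate block, no trend, no fold threshold, presence at 0.5 or 2 TPM, absence under 0.05 or 0.2 TPM, and leaving out each library. Tables were joined with pandas 2.3.3 and figures drawn with matplotlib 3.10.9 in Python 3.11.15.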

Additional observations from a re-analysis of the deposited data

Results flagged for a closer look

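For 4 of the genes searched, every aggregation library lay on one side of the control mean in U87 and on the other side in U118. The search covered only the 10 genes, the nearest expressed genes on each side of the interval, and MPDZ, SH3GL2, PRSS3 and CCIN. These last genes of 9p were taken because they were present in some group and absent in another. Some library of each line had to reach 1 TPM. The share of all genes with this pattern was not computed. The difference between the lines was not tested. For PLAA the U118 difference minus the U87 difference was 4.44 on the log2(TPM + 1) scale. The U118 side is the contrast that chose the gene, over a control group listed at 0. The U87 side was -0.07 (SE 0.25), within the control range, and turned to 0.18 with median-ratio scaling, 0.06 without mitochondrial genes and 0.19 without the second control library, so no opposite effect is shown. For PRSS3, a trypsinogen gene on 9p whose reads can be split with near-identical relatives, it was 8.39: U118 control was listed at 0 and U118 aggregation read 41.2 to 42.3 TPM, whereas U87 read 8.97 to 11.8 TPM in control and 0 to 0.718 in aggregation. For ACO1 it was -2.25, called higher in U87 aggregation (1.17, SE 0.16, limma adjusted p = 0.00178) and lower in U118 aggregation (-1.08, SE 0.22, limma adjusted p = 0.00342). For RPS6 it was -0.46, with neither line called. Groups of 3 libraries are too small for a check of single outlying samples.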

How the results depend on the processing

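The 6 genes present in U118 aggregation and absent in U118 control kept these states with presence at 0.5 TPM, with absence under 0.2 TPM and when any 1 library was left out. With presence at 2 TPM or absence under 0.05 TPM the count was 5, since TEK then lay in between. Their calls did not hold in every fit: when any 1 U118 aggregation library was left out the count fell from 6 to 0 (0 to 6 over all libraries left out), because only 2 libraries then reach 1 TPM and the genes leave the fit. Their fitted U118 differences are set by the pseudocount (1.56 to 5.96 for TEK, 4.37 to 10.94 for PLAA over the settings); their sign was fixed by the choice of genes. None of the 10 was called in U87 in any setting run. At 0.5 TPM, 1 other gene of the interval, LINGO2, was present in U87 aggregation.

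Median-ratio scaling changed the balance of calls. In U87 it gave 663 higher and 543 lower (419 and 1078 before; 55% of calls higher against 28%), and in U118 2337 higher and 1981 lower (1341 and 4134 before; 54.1% against 24.5%). Partner calls became 2 in U87, with 2 higher, and 15 in U118, with 6 higher. Without mitochondrial genes 4 U87 partners were called. With no fold threshold U87 had 5413 calls, 1306 higher and 4107 lower, 24 partners, 4 of them higher, and U118 had 2 partners higher.

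Leaving out each library gave 274 to 480 higher calls in U87 and 767 to 1353 in U118, and 2867 to 5627 lower calls in U118. Partner calls ran from 13 to 28 in U118 (13 without the second aggregation library, 14 without the third control library), with 0 to 1 higher in either line. The replicate block gave 1454 calls in U87 and 5581 in U118 (1497 and 5475 without it), 6 U118 genes of the 10 and 0 in U87. The numbers share no stated origin, and same-numbered libraries correlated by -0.0671 to 0.0113 in U87 and 0.0512 to 0.139 in U118, so they were not treated as pairs. Depth is unknown, so a value listed at 0 has no detection limit.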

Other observations

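The run at 9p21 was not the only stretch of neighbouring genes absent from U118 control. HOXD13, HOXD11, HOXD10 and HOXD9, positional patterning genes that lie side by side on chromosome 2 (chr2:176092891-176124937), were listed at 0 in the 3 U118 control libraries and reached 1 TPM in the other 9. In the opposite direction, 25 neighbouring zinc finger genes on chromosome 19 (chr19:36383120-37817300) were present in U118 control and absent in U118 aggregation, U87 control and U87 aggregation alike. Further along 9p, SH3GL2, an endophilin of synaptic vesicle uptake, was present only in U118 aggregation (7.86, 3.77 and 5.52 TPM, at most 0.0337 elsewhere), as TEK was. MPDZ, a scaffold protein, was absent only there (at most 0.0532 TPM, 2.11 to 10.3 elsewhere). These genes were chosen after their values were seen, and the values are given with no test.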
